A study of Homo sapiens with 2 samples.

Results

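The SR proteins and the heterogeneous nuclear ribonucleoproteins (hnRNPs) are the main families of RNA-binding proteins that decide which splice sites of a pre-mRNA are used. The genes were taken by name: SRSF followed by a number, HNRNP followed by letters or numbers without pseudogene names, and TRA2A, TRA2B, PTBP1, PTBP2, SFPQ and NONO. These were 43 of the 50868 genes in the table, namely 14 SR protein genes (SRSF and TRA2), 25 HNRNP genes, and the 4 genes of the PTB proteins, SFPQ and NONO. Of the 43 genes, 38 had at least 10 reads over both libraries and were compared. The study asked how added UNC5B, a netrin receptor, changed adhesion and proliferation genes in MOLM-13, an established human acute myeloid leukemia line of monocytic type. One library of MOLM-13 mRNA came from cells with the control construct (Vector), and the other carries the label OE-UNC5B (overexpression of UNC5B). According to the study's methods, the gene was delivered by a lentivirus with a CMV promoter, mCherry and puromycin resistance, and cells were selected with puromycin; both cultures grew in the same medium with serum. With 1 library per group no test of the conditions could be made, and every interval given here is a 95% interval of the reads (exact, Clopper-Pearson) that covers counting error only.

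Counted reads summed to 13715566 in Vector and 15637137 in the OE-UNC5B-labelled library. UNC5B itself had 0 reads in both libraries, so the overexpression was not visible in the counts and all directions rest on the labels. All 14 markers of the AML and monocytic lineage had reads in both libraries, with a summed level of 7783 CPM (reads scaled to the library's effective size) in Vector and 4762 CPM in the OE-UNC5B-labelled library. LYZ, with 51742 and 23700 reads, carried most of that gap, and without it the sums were 3947 and 3272 CPM. By log2 fold change 7 of the 14 lay above 0 and 7 below 0: LYZ (−1.36), MPO (−1.35), ELANE (−0.67) and AZU1 (−0.45) were the lowest, and MEIS1 (0.90), PTPRC (0.73), HOXA9 (0.47) and FLT3 (0.42) the highest. Of the 5 epithelial and kidney-line markers, KRT8, KRT19, EPCAM and CDH1 were at 0 and KRT18 had 5 and 2 reads. The endothelial markers KDR, CDH5 and TEK were at 0, VWF had 1 and 2 reads, and PECAM1, which myeloid cells express too, had 1626 and 1471. Of the 5 fibroblast markers DCN and POSTN were at 0, and the list summed to 31 and 11 reads, with COL1A1 at 21 and 9. The 5 lymphoid markers summed to 72 and 114 reads, of which CD3D held 67 and 102, and MS4A1 was at 0. The part of these marker differences in the values below was not tested, and in bulk RNA fewer cells of a type and less RNA per cell cannot be told apart.

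SR proteins bind exonic enhancers through RNA recognition motifs and recruit spliceosome parts through a tail rich in arginine and serine, the RS domain, which SRPK and CLK kinases phosphorylate. The hnRNPs coat nascent RNA, often oppose SR proteins at silencer elements, and many carry arginine-glycine-glycine (RGG) repeats that are methylated. Many genes of both families limit their own level by splicing in a "poison" exon that sends the transcript to nonsense-mediated decay, and several splicing factors, SRSF2 among them, are mutated in myeloid neoplasms.

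The coding sequences differ between the families in these repeats. The SR name stands for serine and arginine, so for arginine-serine neighbours this difference came with the choice of genes by name. In the main GENCODE 44 transcript, the 13 compared SR protein genes had a median of 17.4 neighbouring arginine and serine codons (either order) per 100 codons, with a range of 4.07 (SRSF9) to 23.5 (SRSF2). The 21 compared HNRNP genes had a median of 1.13, with a range of 0.241 to 2.64, so the families did not overlap. Codons for RGG were present in 16 of the 21 HNRNP genes and in 5 of the 13 SR protein genes. The windows below show for each gene the 20 codons with the most such motifs, 5′ to 3′ on the coding strand, from the member that was past 1.5-fold higher (SRSF11), the SR genes that were lowest (SRSF9, SRSF1), and the hnRNP genes with high levels (HNRNPA1, HNRNPU). Capitals mark codons of arginine-serine neighbours in the SRSF genes and RGG codons in the HNRNP genes.
SRSF11: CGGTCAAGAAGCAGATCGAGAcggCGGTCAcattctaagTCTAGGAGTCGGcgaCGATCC
SRSF9: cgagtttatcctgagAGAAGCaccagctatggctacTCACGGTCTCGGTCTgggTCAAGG
SRSF1: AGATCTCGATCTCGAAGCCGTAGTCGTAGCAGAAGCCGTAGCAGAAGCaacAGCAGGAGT
HNRNPA1: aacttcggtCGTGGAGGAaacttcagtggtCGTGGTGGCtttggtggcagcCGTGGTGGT
HNRNPU: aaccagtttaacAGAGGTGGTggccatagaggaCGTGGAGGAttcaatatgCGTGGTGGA
The SRSF1 window (codons 204 to 223) held 17 such neighbours, the SRSF11 window (codons 268 to 287) held 11, and the SRSF9 window (codons 181 to 200) held 6. The HNRNPA1 window (codons 215 to 234) and the HNRNPU window (codons 698 to 717) each held 3 RGG motifs. SRSF9 and SRSF11 had the fewest neighbours per 100 codons of the compared SR genes, at 4.07 and 8.26. On GRCh38, SRSF11 lies on chromosome 1 (70205682 to 70253052, plus strand), SRSF9 on chromosome 12 (120461668 to 120469793, minus strand) and SRSF1 on chromosome 17 (58003360 to 58007346, minus strand). HNRNPA1 lies on chromosome 12 (54280193 to 54287088, plus strand) and HNRNPU on chromosome 1 (244851166 to 244864542, minus strand).

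Most of the genes were abundant and close to equal in the 2 libraries. Together they took 202529 reads in Vector and 225353 reads in the OE-UNC5B-labelled library, or 1.48% and 1.44% of all counted reads. Their median level was 34.4 FPKM (fragments per kilobase of transcript, scaled to the library's total) in Vector and 29.3 FPKM in the OE-UNC5B-labelled library, against 2.80 and 2.96 FPKM over all 15384 compared genes. By the FPKM of their own rows, HNRNPU, HNRNPK and HNRNPA1 held ranks 1, 2 and 3 among the members in both libraries. Rows of near-identical HNRNPA1 copies, which are not members, stood higher, HNRNPA1P7 at 926 and 981 FPKM and HNRNPA1P48 at 387 and 375 FPKM. Reads that match such copies make the rank of HNRNPA1 uncertain. PTBP2 was the lowest of the 38 in both libraries.

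**Figure D1:**
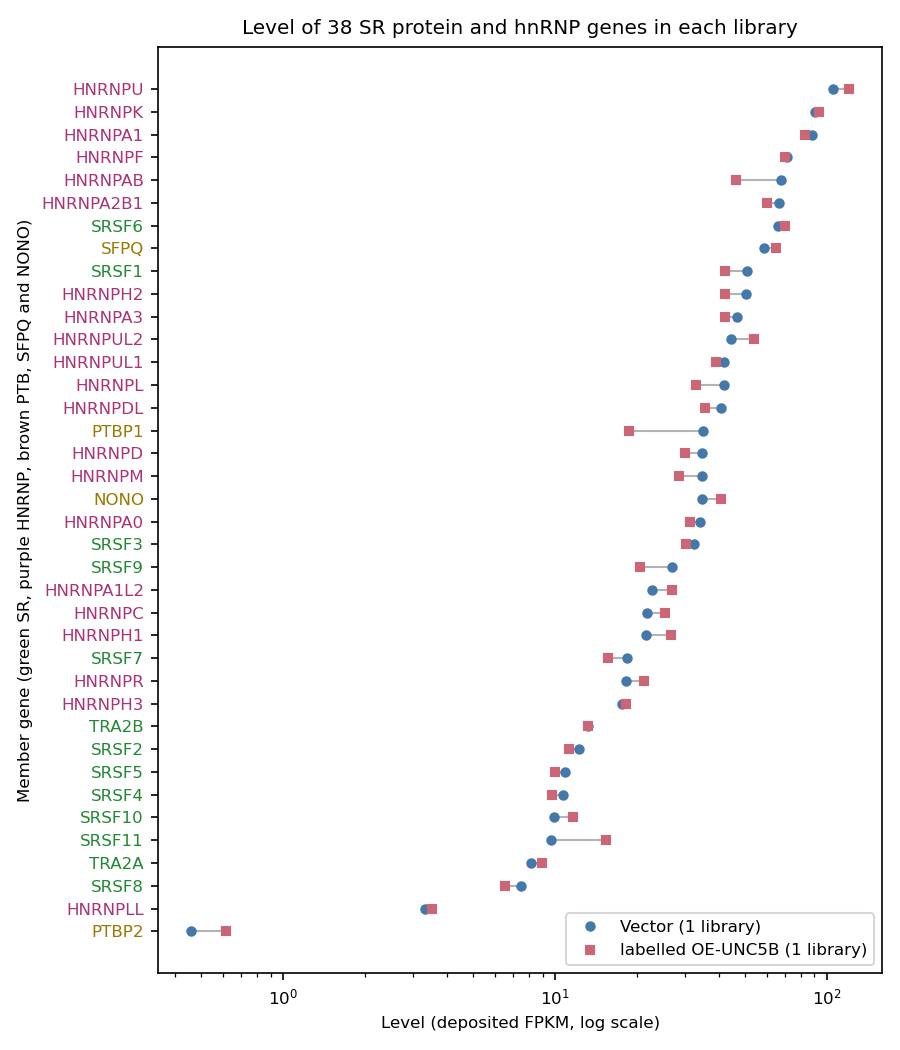
Level of the 38 compared genes in deposited FPKM (log axis) in Vector (circles) and in the OE-UNC5B-labelled library (squares), 1 library each, ordered by the Vector level. HNRNPU is highest at 105 and 121 FPKM, PTBP2 is lowest at 0.460 and 0.618 FPKM, and the widest gaps are those of PTBP1, SRSF11 and HNRNPAB.

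A gene was counted as higher or lower when its level, scaled by TMM (trimmed mean of M-values), differed by at least 1.5-fold. By this measure 1 of the 38 genes, SRSF11, was higher in the OE-UNC5B-labelled library, and 2, PTBP1 and HNRNPAB, were lower. Over all compared genes 12.9% were higher and 12.5% were lower, against 2.63% and 5.26% of the members. The other 35 members (92.1%) lay within 1.5-fold, against 74.6% of all compared genes and 85.4% of the 8180 genes with at least 500 reads. No member was past 2-fold (0 higher, 0 lower), against 5.27% and 4.72% of all compared genes. Of the 8180 genes with at least 500 reads, only 160 were past 2-fold higher and 114 lower. Among genes with at least 500 reads, 7.73% were past 1.5-fold higher and 6.88% lower. With library totals or DESeq2 size factors in place of TMM the counts were 1 higher and 1 lower, since HNRNPAB then lay within 1.5-fold. The median log2 fold change was −0.14 over the 38 members and −0.01 over all compared genes, with 22 members below 0 and 16 above 0. Reads set narrow intervals on genes this abundant: the interval lay below 0 in 21 of 38 members (55.3%) and above 0 in 11 (28.9%). Among all compared genes 26.3% had an interval below 0 and 25.1% one above 0. Among genes with at least 500 reads, the class that holds 37 of the 38 members, these shares were 35.9% and 34.2%.

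**Figure D2:**
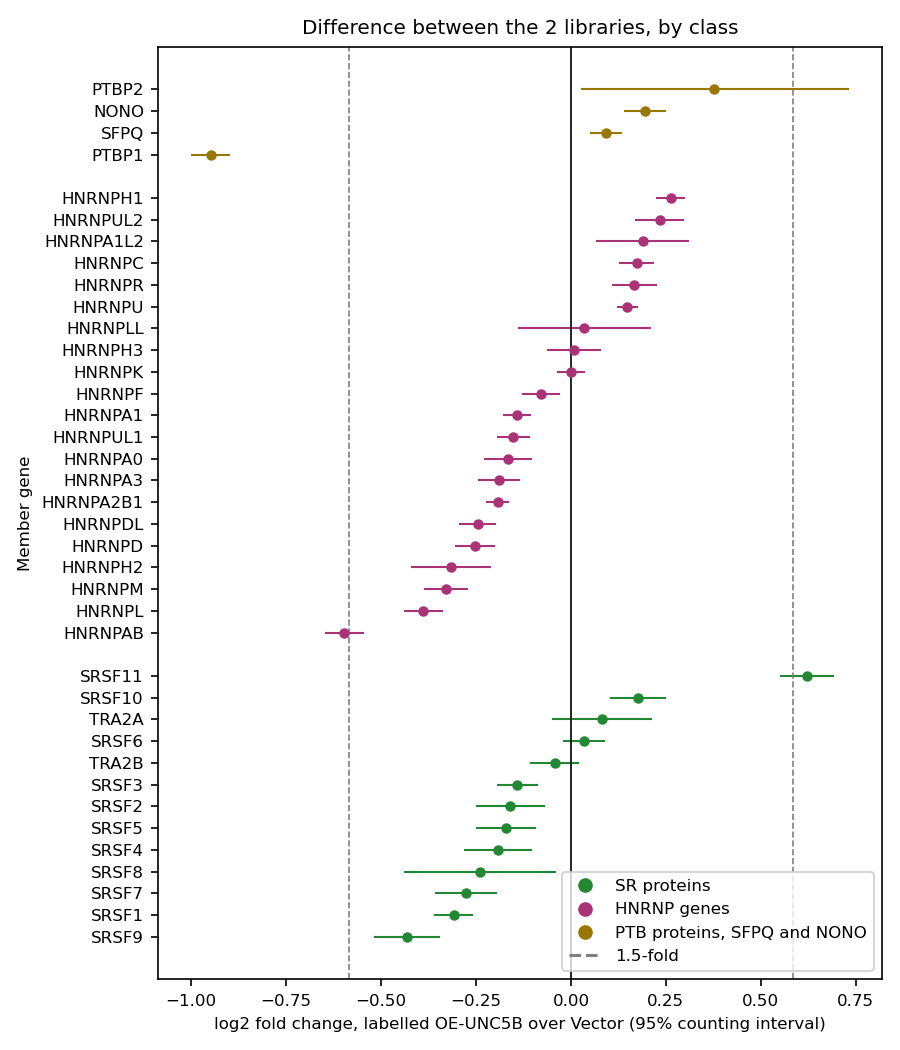
Log2 fold change of each compared gene, OE-UNC5B label over Vector, with its 95% counting interval, grouped as SR proteins (13), HNRNP genes (21) and PTB proteins, SFPQ and NONO (4). Dashed lines mark 1.5-fold; PTBP1 and HNRNPAB lie beyond the lower line and SRSF11 beyond the upper one, while 35 genes lie between them.

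Among the SR proteins, SRSF11 stood highest and SRSF9 lowest. With a trend on GC content and transcript length over all genes removed, however, SRSF1 (−0.49), SRSF7 (−0.338) and SRSF8 (−0.325) were lower than SRSF9 (−0.324). The 13 compared genes had a median log2 fold change of −0.16, with 9 below 0 and 4 above 0. SRSF11, an SR-related protein that binds SR proteins and the splicing factor U2AF2, had 2493 reads in Vector and 4517 in the OE-UNC5B-labelled library. Its level was 9.70 and 15.4 FPKM, and its log2 fold change was 0.62 (0.55 to 0.69), or 1.54-fold higher. The interval reaches to both sides of the 1.5-fold limit, and with that trend removed SRSF11 lay within it, at 0.49. No base of its exons is shared with another annotated gene.

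SRSF10, a splicing repressor when dephosphorylated, had 2619 and 3490 reads and a log2 fold change of 0.18 (0.10 to 0.25), which turned to −0.09 with that trend removed. TRA2A and TRA2B, relatives of the fly sex-determination factor transformer-2 that bind GAA-rich enhancers, had log2 fold changes of 0.08 (−0.05 to 0.21) and −0.04 (−0.11 to 0.02). The intervals of both TRA2 genes hold 0, and the sign of TRA2B turned to positive with library totals or FPKM. With that trend removed TRA2A lay at 0.06 and TRA2B at −0.16. SRSF6 was the SR gene with the highest level, at 66.0 FPKM in Vector and 69.9 FPKM in the OE-UNC5B-labelled library. Its log2 fold change was 0.03 (−0.02 to 0.09), which turned to −0.10 with that trend removed.

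SRSF9 had 2331 and 2036 reads, 26.8 and 20.6 FPKM, and a log2 fold change of −0.43 (−0.52 to −0.35). SRSF9 was the first gene within the 1.5-fold limit on the lower side, HNRNPAB at −0.60 being the nearest one past it. Of the exonic bases of SRSF9, 43.6% are shared with the antisense gene GATC, so without strand the reads on those bases cannot be told apart from those of GATC. SRSF1, the founding SR protein and an oncogenic splicing factor, had 6147 and 5847 reads, 50.6 and 42.2 FPKM, and a log2 fold change of −0.31 (−0.36 to −0.26), or −0.49 with the trend removed. Of its exonic bases 32.7% are shared with another gene on the same strand. SRSF7, which also takes part in mRNA export, had 2535 and 2467 reads and a log2 fold change of −0.28 (−0.36 to −0.20).

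SRSF3, which couples splicing to export and 3′ end choice, had 32.3 and 30.3 FPKM and a log2 fold change of −0.14 (−0.20 to −0.09), or −0.28 with the trend removed. SRSF2 had 1919 reads in Vector and 2025 in the OE-UNC5B-labelled library, 12.2 and 11.3 FPKM, and a log2 fold change of −0.16 (−0.25 to −0.07). Of its exonic bases 27.7% are shared with MFSD11 on the other strand. The other compared SR genes, SRSF4, SRSF5 and SRSF8, lay between −0.24 and −0.17. SRSF12 had 0 reads in both libraries, which allows up to 0.222 CPM in Vector and 0.189 CPM in the OE-UNC5B-labelled library.

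The HNRNP genes had a median log2 fold change of −0.14 over the 21 compared genes, with 12 below 0 and 9 above 0. Past 1.5-fold lower was 1 of them (4.76%, against 12.5% of all compared genes), and past 1.5-fold higher were 0 (against 12.9%). HNRNPAB, a CArG-box and mRNA-binding protein of the A/B type, had 7027 reads in Vector and 5478 in the OE-UNC5B-labelled library. Its level was 67.6 and 46.3 FPKM, rank 5 and rank 9 among the members, and its log2 fold change was −0.60 (−0.65 to −0.55), or 1.51-fold lower. The interval reaches to both sides of the 1.5-fold limit. HNRNPAB lay within that limit with library totals (−0.55), DESeq2 size factors (−0.56) and FPKM (−0.55 and −0.54). It also did so with the trend on GC content and transcript length removed (−0.50). HNRNPAB lies on chromosome 5 (178204507 to 178211180, plus strand), and 9.25% of its exonic bases are shared with PHYKPL on the other strand.

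HNRNPL, which binds CA repeats, had 6364 and 5729 reads and a log2 fold change of −0.39 (−0.44 to −0.34). HNRNPM, which binds GU-rich RNA, had 4964 and 4655 reads and a log2 fold change of −0.33 (−0.39 to −0.27). HNRNPLL, the paralogue of HNRNPL known for splicing of CD45 in lymphocytes, had 491 and 593 reads and a log2 fold change of 0.04 (−0.14 to 0.21). In this setting the counting intervals of these paralogues did not overlap. With the trend on GC content and transcript length removed the paralogues lay closer, HNRNPL at −0.31 and HNRNPLL at −0.11, and no interval was made there.

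On the higher side, HNRNPH1, which binds G-runs, had 9061 and 12809 reads and a log2 fold change of 0.26 (0.22 to 0.30). Its paralogue HNRNPH2 lay on the other side of 0, with 1543 and 1461 reads and a log2 fold change of −0.32 (−0.42 to −0.21), and HNRNPH3 at 0.01 (−0.06 to 0.08). Of the exonic bases of HNRNPH2, 15.8% are shared with the readthrough gene RPL36A-HNRNPH2. HNRNPUL2, a relative of HNRNPU, had 3380 and 4683 reads and a log2 fold change of 0.23 (0.17 to 0.30). Of its exonic bases 44.3% are shared with the readthrough gene HNRNPUL2-BSCL2, which was counted at 110 and 132 reads. HNRNPUL1, the other relative, lay at −0.15 (−0.19 to −0.11).

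By the FPKM of their own rows, without the copies described below, the most abundant members were HNRNPU, HNRNPK and HNRNPA1. HNRNPU, also called scaffold attachment factor A, had 18631 and 24342 reads, 105 and 121 FPKM, and a log2 fold change of 0.15 (0.12 to 0.18), which turned to −0.04 with the trend on GC content and length removed. HNRNPK, which binds C-rich RNA and DNA, had 90.7 and 93.8 FPKM and a log2 fold change of 0.00 (−0.04 to 0.04), or −0.07 with the trend removed. HNRNPA1, the classical antagonist of SRSF1, had 88.4 and 82.8 FPKM and a log2 fold change of −0.14 (−0.18 to −0.11). It lay at −0.23 with the trend removed and at −0.07 with the reads of its copies added. The other A/B type genes HNRNPA0, HNRNPA2B1, HNRNPA3, HNRNPD and HNRNPDL lay between −0.25 and −0.17, and between −0.41 (HNRNPA0) and −0.32 with the trend removed. More than any other member, HNRNPA3 shares exonic bases with a gene on the other strand, NFE2L2 (53.6%). HNRNPCL2, HNRNPCL3 and HNRNPCL4, copies of HNRNPC on chromosome 1, had 0 reads in both libraries, and HNRNPCL1 had 4 and 3 reads.

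The PTB proteins held the largest difference among all members. PTBP1, the polypyrimidine tract-binding protein that represses exons in most non-neural cells, had 8165 reads in Vector and 4987 in the OE-UNC5B-labelled library. Its level was 34.9 and 18.7 FPKM, and its log2 fold change was −0.95 (−0.999 to −0.897), or 1.93-fold lower. PTBP1 stood at rank 16 of the members by FPKM in Vector and at rank 26 in the OE-UNC5B-labelled library. It lies on chromosome 19 (797075 to 812327, plus strand), and 0.824% of its exonic bases are shared with another gene on its strand.

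PTBP2, the neural paralogue whose transcript PTBP1 is known to send to decay by exon skipping, had 113 and 173 reads. Its level was 0.460 and 0.618 FPKM and its log2 fold change 0.38 (0.03 to 0.73), an interval that reaches nearly to 0. With the trend on GC content and transcript length removed PTBP2 lay at 0.25. PTBP3, the paralogue expressed in blood cells, is not among the members and was picked after its value was seen. It had 1905 and 3717 reads and a log2 fold change of 0.73 (0.65 to 0.81), or 0.47 after a trend on GC content and transcript length was taken out. In FPKM, PTBP1 was at 34.9 and PTBP3 at 7.69 in Vector, and at 18.7 and 13.2 in the OE-UNC5B-labelled library. SFPQ and NONO, the partners that form paraspeckles, lay at 0.09 (0.05 to 0.13) and 0.19 (0.14 to 0.25), with 8168 and 10262 reads for SFPQ and 4803 and 6480 for NONO. The median of these 4 genes was 0.14, while their summed reads, 21249 and 21902, gave −0.19, since PTBP1 holds many of them. Summed over the SR genes (37537 and 42128 reads) and over the HNRNP genes (143739 and 161320 reads) the log2 fold change was −0.07 each.

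Base composition moved with the differences. The 5 members that were lower by at least 0.32 on the log2 scale, PTBP1, HNRNPAB, SRSF9, HNRNPL and HNRNPM, had a GC content of 52.1% (SRSF9) to 57.7% (PTBP1) in the main transcript, against a median of 42.3% over the members. Of all compared genes 25.1% were lower by that much, and of the members 13.2%. The next members, just short of that limit, were poorer in GC, HNRNPH2 (42.4% GC) at −0.32 and SRSF1 (38.7% GC) at −0.31. In turn, the GC-rich HNRNPUL1 (54.9% GC) lay at −0.15 and HNRNPUL2 (52.2% GC) at 0.23. Across the 38 genes, which share both libraries and are no replicates, Pearson's r of GC content and log2 fold change was −0.51 and Spearman's rho −0.39. Across 15198 compared genes with an annotation the same values were −0.13 and −0.18. After a trend on GC content and transcript length over all genes was taken out, PTBP1 lay at −0.88, HNRNPAB at −0.50 and SRSF11 at 0.49, so PTBP1 alone was past 1.5-fold. The members then split into 9 above 0 and 29 below 0. The trend made the value over 1.5 times larger in 7 members (SRSF1, SRSF3, TRA2B, HNRNPA0, HNRNPA1, HNRNPA2B1 and HNRNPA3), all of them below 0, and over 1.5 times smaller in 2 (HNRNPC and PTBP2). It turned the sign in 7, from above to below 0, and moved the other 22 by less than 1.5 times. The part of base composition in these differences was not tested further.

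**Figure D3:**
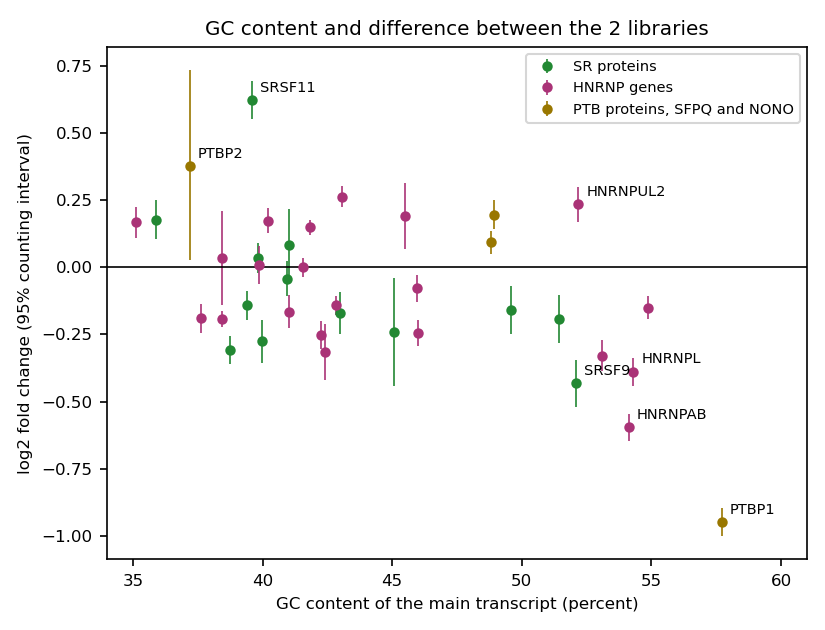
GC content of the main transcript (percent) against log2 fold change with its 95% counting interval for the 38 compared genes. PTBP1, HNRNPAB, HNRNPL and SRSF9 lie at over 52% GC and below 0, SRSF1 lies at 38.7% GC and −0.31, SRSF11 lies at 39.6% GC and 0.62, and HNRNPUL2 lies at 52.2% GC and 0.23.

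Several HNRNP genes share sequence with retrocopies, and the table counts parents and copies on rows of their own. Of the members, 20 had at least 1 row named as a pseudogene of theirs, 134 rows in all, of which 64 held reads. These rows took 34555 and 39263 reads, 0.252% and 0.251% of all counted reads. HNRNPA1 had 75 such rows with 26476 and 30469 reads, which was 68.5% (68.0 to 69.0) of the reads of parent and copies in Vector and 70.1% (69.6 to 70.5) in the OE-UNC5B-labelled library. For HNRNPA3 the share was 49.0% and 48.9%, for HNRNPC 16.0% and 15.7%, and for HNRNPK 9.60% and 9.55%.

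To show how near the copies are, coding bases 640 to 699 of HNRNPA1 (chromosome 12, plus strand) are printed with the same stretch of the 3 copies with the most reads and of HNRNPA1L2, a member on chromosome 13. Among the 60-base coding stretches that begin at a codon start and align without gaps in all 4, none holds more differing bases than this one. Sequences are from GRCh38, 5′ to 3′ on the coding strand, and capitals mark bases that differ from HNRNPA1.
HNRNPA1: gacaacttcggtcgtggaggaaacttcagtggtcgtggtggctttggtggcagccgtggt
HNRNPA1P48: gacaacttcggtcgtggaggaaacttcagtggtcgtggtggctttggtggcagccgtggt
HNRNPA1P7: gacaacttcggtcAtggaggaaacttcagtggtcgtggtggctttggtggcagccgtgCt
HNRNPA1P10: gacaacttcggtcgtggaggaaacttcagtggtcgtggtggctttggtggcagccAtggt
HNRNPA1L2: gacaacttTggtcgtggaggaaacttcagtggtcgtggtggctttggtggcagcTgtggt
Over their aligned lengths HNRNPA1P48 (chromosome 16, 51645756 to 51647132) matched the HNRNPA1 mRNA at 99.3% of 1360 bases and HNRNPA1P7 (chromosome 18, 32412214 to 32413176) at 99.1% of 963 bases. HNRNPA1P10 (chromosome 19, 11666069 to 11667030) matched at 99.6% of 962 bases and HNRNPA1L2 (chromosome 13, 52640786 to 52643796) at 98.5% of 1349 bases. Of all 100-base windows of HNRNPA1P7, 64.0% occur without a mismatch in the HNRNPA1 mRNA.

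HNRNPA1P48 was counted at 12419 reads in Vector and 13711 in the OE-UNC5B-labelled library, against 12181 and 13012 on HNRNPA1 itself. HNRNPA1P7 was counted at 12232 and 14766 reads, and HNRNPA1P10 at 1571 and 1672. HNRNPA1P48 and HNRNPA1P7 thus drew at least as many reads as their parent in both libraries. How the counting placed reads that match several genes is not given in the sources used here, so the HNRNPA1, HNRNPA3, HNRNPC and HNRNPA1L2 counts are uncertain. Adding the copies moved the log2 fold change of HNRNPA1 from −0.14 to −0.07 (−0.09 to −0.05), and that of HNRNPA3 stayed at −0.19. HNRNPC was at 0.17 with and without its copies. With the trend removed and no copies added, HNRNPA3 lay at −0.39 and HNRNPC at 0.08. GENCODE 44 lists HNRNPA1P48 as the protein-coding gene HNRNPA1L3. HNRNPA1L2 had 941 and 1264 reads and a log2 fold change of 0.19 (0.07 to 0.31), and all of its exonic bases are shared with a second gene on the same strand.

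**Figure D4:**
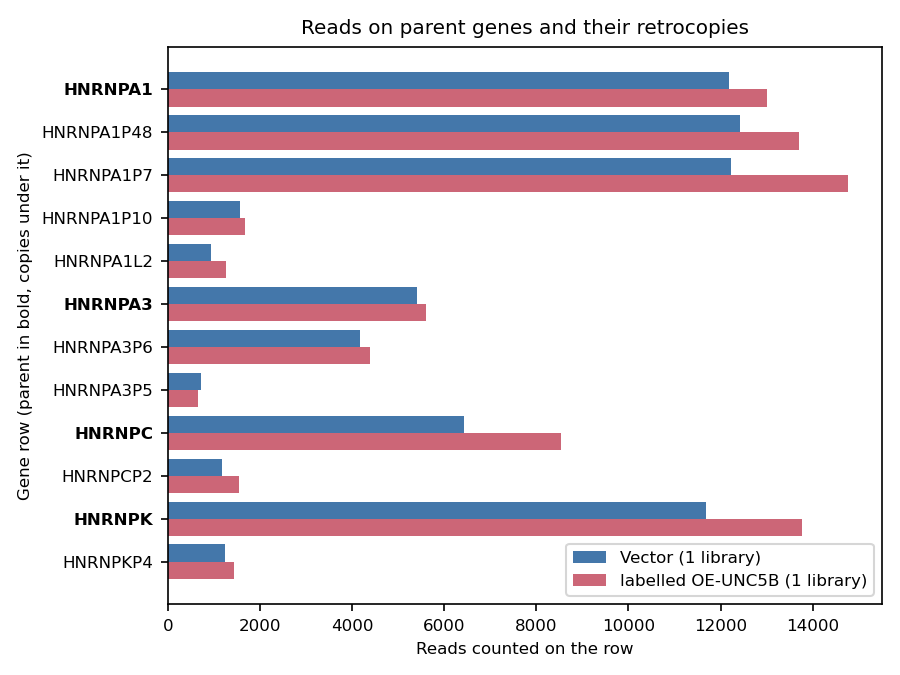
Reads counted on 4 HNRNP genes (bold) and on their retrocopies in Vector and in the OE-UNC5B-labelled library, 1 library each. The bars of HNRNPA1P48 and HNRNPA1P7 are as long as those of HNRNPA1, at 12181 to 14766 reads, whereas HNRNPKP4 holds 1235 and 1446 reads beside 11674 and 13760 on HNRNPK.

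Transcripts that are decay targets are annotated for most of the members. A nonsense-mediated decay transcript was annotated for 31 of the 38 compared genes (81.6%) and for 5809 of the 11930 compared protein-coding genes (48.7%). A retained-intron transcript was annotated for 29 of 38 (76.3%), against 60.8%. Gene-level counts do not separate coding from decay transcripts, so their balance was not measured here.

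Of the factors that work with these proteins, the first list holds the kinases and importins of SR proteins. Over its 10 genes the median was 0.14 on the log2 scale, or 0.03 with the trend on GC content and length removed. Past 1.5-fold were 0 in either direction, against 12.9% higher and 12.5% lower of all compared genes. Among genes with at least 500 reads 7.73% were higher and 6.88% lower, shares to be read beside the lists below too. SRPK1, the main cytoplasmic SR protein kinase, was the lowest with 4358 and 3499 reads and a log2 fold change of −0.55 (−0.62 to −0.49). DYRK1A, a nuclear kinase, was the highest with 231 and 371 reads and 0.45 (0.21 to 0.69). With that trend removed SRPK1 lay at −0.68, past 1.5-fold lower, and DYRK1A at 0.10. The CLK kinases CLK1, CLK2, CLK3 and CLK4 lay between −0.04 and 0.23.

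The nonsense-mediated decay and exon junction genes had a median of 0.08 over 15 genes, or 0.01 with the trend removed, with 1 past 1.5-fold higher (6.67%, against 12.9% of all compared genes) and 2 lower (13.3%, against 12.5%). SMG1, the kinase that phosphorylates UPF1, had 3308 and 6049 reads and a log2 fold change of 0.63 (0.57 to 0.70). The exon junction core proteins RBM8A and EIF4A3 lay at −0.69 (−0.81 to −0.57) and −0.61 (−0.71 to −0.52). EIF4A3 lay within 1.5-fold with library totals (−0.56) and DESeq2 size factors (−0.58), RBM8A did so with FPKM and 1 added (−0.58), and SMG1 with the trend removed (0.29).

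The U1, U2 and Sm proteins, which form the early spliceosome, had the lowest median of the lists described here. The median was −0.31 over 27 genes, with 24 below 0, against 7774 of the 15384 compared genes. Past 1.5-fold lower were 3 (11.1%, against 12.5% of all compared genes) and past 1.5-fold higher 0 (against 12.9%). Of the 27 genes 48.1% were lower by at least 0.32 on the log2 scale. This was true of 25.1% of all compared genes and of 20.2% of those with at least 500 reads. The genes past 1.5-fold were SF3B5 with 2682 and 1605 reads and −0.98 (−1.07 to −0.89), SNRPG at −0.83 (−0.94 to −0.72) and SNRPE at −0.60 (−0.72 to −0.47). SNRPE lay within 1.5-fold with library totals (−0.55), DESeq2 size factors (−0.56) and FPKM (−0.55 and −0.53). SF3B1, the U2 component most often mutated in myelodysplasia, lay on the other side with 6751 and 10272 reads and 0.37 (0.32 to 0.41), or 0.18 with the trend removed. U2AF1, which reads the 3′ splice site, had 146 and 206 reads and 0.26 (−0.05 to 0.58), and ZRSR2, its counterpart for minor introns, had 189 and 209 reads and −0.09 (−0.38 to 0.20). The near-identical row U2AF1L5 had 0 reads, and the U2AF1 count is uncertain for that reason.

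The U4/U6.U5 and catalytic step factors had a median of −0.14 over 26 genes, with 1 past 1.5-fold higher (3.85%, against 12.9% of all compared genes) and 0 lower (against 12.5%). This was LSM8, a U6 ring protein, at 0.71 (0.61 to 0.83), or 0.34 with the trend removed. LSM3, another ring protein, was the lowest of the list at −0.52 (−0.64 to −0.39). The other RNA-binding splicing regulators had a median of 0.13 over 41 genes, or 0.05 with the trend removed, with 3 past 1.5-fold higher (7.32%, against 12.9% of all compared genes) and 0 lower (against 12.5%). The 3 genes were PTBP3, which lay within 1.5-fold with the trend removed, and the muscleblind proteins MBNL2 and MBNL3. MBNL3, which binds YGCY motifs, had 40 and 440 reads and a log2 fold change of 3.21 (2.75 to 3.73). From FPKM, where it stood at 0.122 and 1.18, its value was 2.52 with 0.1 added and 0.96 with 1 added. MBNL2 had 64 and 135 reads and 0.84 (0.40 to 1.29). ELAVL1, which stabilises AU-rich mRNA, was the lowest of the list at −0.57 (−0.65 to −0.48), or −0.69 with the trend removed.

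**Figure D5:**
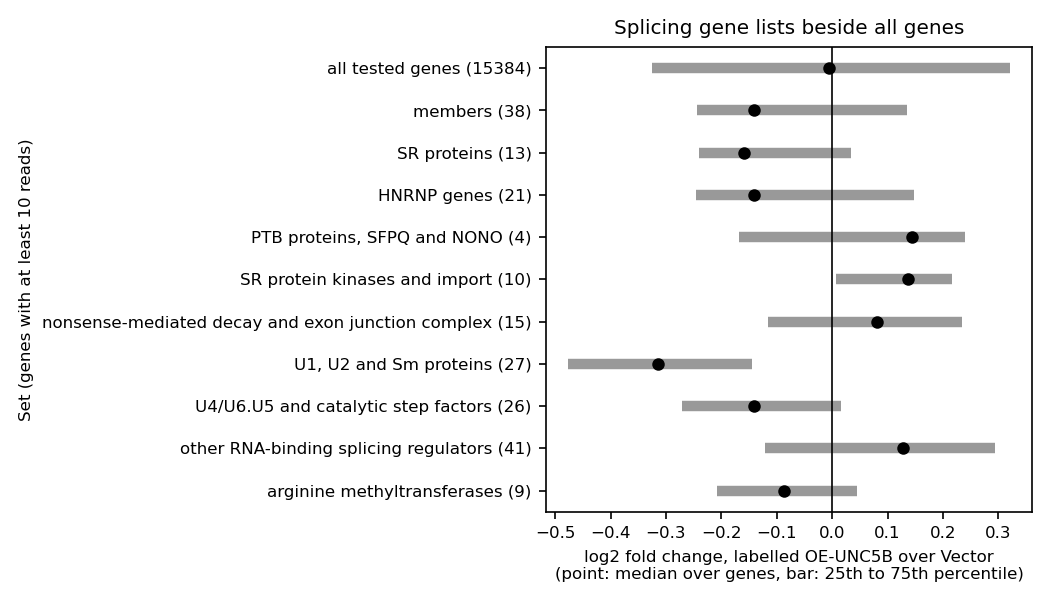
Median (point) and 25th to 75th percentile (bar) of the log2 fold change of each gene list, OE-UNC5B label over Vector, with the number of compared genes in brackets. The members lie at −0.14 and the U1, U2 and Sm proteins at −0.31, while all compared genes lie at −0.01 with a bar from −0.32 to 0.32.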

How the data were processed

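The RNA-seq libraries, 1 Vector and 1 with the label OE-UNC5B, were made from MOLM-13 cells (VAHTS Universal V6 kit, single-end, Illumina HiSeq). The authors deposited 1 table with whole-number, unnormalized read counts of each gene beside its FPKM. The submitters' processing notes name bcl2fastq 2.19, HISAT2 2.0.4, StringTie 1.3.0 and GRCh38, with no roles. The annotation release, the use of strand and the treatment of reads that match several genes are not given in the sources used here. No column was left unmapped.

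Gene groups and lists were chosen with earlier results of these data known. The counts were scaled by TMM (edgeR 4.0.16, R 4.3.3), with factors of 0.984 (Vector) and 1.02. A gene entered the comparison at 10 or more reads summed over the libraries, and 0.5 reads were added before taking logs. Levels between genes are the deposited FPKM values. The 95% intervals are exact binomial (Clopper-Pearson) on the reads (scipy 1.17.1), and rows at 0 reads are limited by 3 reads per library. Lengths, GC content, transcripts and coding sequences are from GENCODE 44 (all 43 gene identifiers matched) and bases from the GRCh38 sequence. Codons were counted in each gene's main transcript, and copies were aligned to the parent's mRNA. MATR3 has 2 rows, of which the one with more reads was used. The procedure was tested on simulated counts.

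Named genes were, within each class, those past 1.5-fold, the 3 largest and 3 smallest log2 fold changes with at least 100 reads, the 3 highest FPKM in Vector and those under 10 reads. Of each list, the highest and the lowest gene with at least 100 reads and those past 2-fold were named, and SRSF2, U2AF1, SF3B1 and ZRSR2 whatever their values. Paralogues and parents of retrocopies were added after values were seen, as were the genes of a list past 1.5-fold, the CLK kinases and TRA2B. As alternatives, values were scaled by library totals or by DESeq2 1.42.0 size factors, or taken from FPKM (0.1 or 1 added, genes reaching 1 FPKM); the rest were 2 reads added, no filter, at least 500 reads, a fold of 2 and a log2 difference of 0.32, copies added to the parent, and a quadratic trend on GC content and log2 transcript length subtracted. Leaving out 5 members (HNRNPA1, HNRNPA3, HNRNPC and HNRNPK, which have a copy row of at least 1000 reads, and HNRNPA1L2) was chosen after seeing the data.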

Additional observations from a re-analysis of the deposited data

How the results depend on the processing

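The sign of the median log2 fold change of the members, 38 in the main setting, was negative under every alternative that gave this median. It was −0.09 with library totals or FPKM, −0.11 with DESeq2 size factors and −0.14 once the trend on GC content and length was removed. Over the 33 members left without HNRNPA1L2 and the 4 that have a copy row of at least 1000 reads it was −0.15. Adding copies to the parent was run for single genes only. Library totals moved the median of all compared genes to 0.04. The count of members past 1.5-fold higher, SRSF11 in the main setting, was 0 with the trend subtracted, 0 at 2-fold and 2 at a log2 difference of 0.32, where PTBP2 joined it. The count of members past 1.5-fold lower was 1 with library totals, with DESeq2 size factors, with FPKM and 0.1 or 1 added, and with the trend subtracted, and in each of these PTBP1 was the gene. HNRNPAB lay between −0.56 and −0.50 there. At 2-fold no member was lower (0), and at a log2 difference of 0.32 there were 5. With the trend subtracted the medians of the lists were 0.0264 for SR protein kinases and import, 0.0106 for nonsense-mediated decay and exon junction complex, and 0.0522 for other RNA-binding splicing regulators, and PTBP3 lay at 0.47, LSM8 at 0.34 and SMG1 at 0.29, all within 1.5-fold, whereas SRPK1 (−0.68) and ELAVL1 (−0.69) were then past 1.5-fold lower. DYRK1A moved to 0.10 and SF3B1 to 0.18. Among list genes past 1.5-fold, EIF4A3 and SNRPE fell within it with library totals, DESeq2 size factors and FPKM (−0.58 to −0.53), and RBM8A with FPKM and 1 added (−0.58). MBNL3 lay at 2.52 and 0.96 with FPKM and 0.1 or 1 added. The trend made 7 members over 1.5 times lower (SRSF1 −0.49, HNRNPA0 −0.41, HNRNPA3 −0.39, HNRNPA2B1 −0.32, SRSF3 −0.28, HNRNPA1 −0.23 and TRA2B −0.16) and HNRNPC (0.08) and PTBP2 (0.25) over 1.5 times smaller. It turned the sign of 7 members, HNRNPU, HNRNPR, HNRNPH3, HNRNPK, SRSF6, HNRNPLL and SRSF10. PTBP2 was under the FPKM minimum and has no value there. The causes were not tested. No paired analysis was possible because each group has 1 library, and for the same reason no replicate could be left out. Depth limits little for these genes, whose intervals reached a median of 0.06 to each side on the log2 scale, and the spread between cultures was not measured.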

Other observations

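Arginine methyltransferases, which modify the RGG repeats of hnRNPs, had a median log2 fold change of −0.09 over 9 genes. PRMT1, the main enzyme for asymmetric dimethylation, had 6765 reads in Vector and 4681 in the OE-UNC5B-labelled library, 59.0 and 35.8 FPKM, and a log2 fold change of −0.77 (−0.82 to −0.71). It was the only gene of this list past 1.5-fold, with 0 higher and 1 lower (11.1%, against 12.5% of all compared genes), and its transcript has 57.9% GC. Once the trend on GC content and length was removed, it lay at −0.62. PRMT3 was the highest of the list at 0.16 (0.00 to 0.31).

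Next to HNRNPU on chromosome 1, the RNA gene HNRNPU-AS1 is placed on the same minus strand in the deposited table (244840638 to 244846903). It was counted at 4988 reads in Vector and 7492 in the OE-UNC5B-labelled library. Its log2 fold change was 0.35 (0.30 to 0.40) beside 0.15 (0.12 to 0.18) for HNRNPU, and in this setting the counting intervals did not overlap. HNRNPU turned to −0.04 with the trend on GC content and length removed, and HNRNPU-AS1 has no value for that alternative here. BSCL2, the partner of HNRNPUL2 in the readthrough gene, had 124 reads in each library and a log2 fold change of −0.24 (−0.61 to 0.13). Of the 43 genes, 11 lie on chromosome 1 and 4 on chromosome 19.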
